A study of Equus caballus with 32 samples.

Results

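Cathelicidins and lactoferrin are antimicrobial proteins that neutrophils make while they mature in the bone marrow and then carry in their granules. A cathelicidin is made as a proprotein with a conserved cathelin domain, and the active peptide is cut from its carboxy terminus when the granule content is released. Lactoferrin binds iron, which it keeps from microbes, and is a defining protein of the specific granules. Their messenger RNAs belong to the precursor stages, so in mature neutrophils of the blood the proteins are stored while the transcripts are largely gone.

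Described here are the 3 genes ECATH-2, ECATH-3 (both equine cathelicidins) and LTF (lactoferrin), of 15706 genes named on the array. They were found by the gene name that the scanner files give each non-control probe, which gave 15 probes. Of these, 13 were well above background often enough to be tested, together with 26379 probes in all. The genes were selected on their difference between the study's groups, ECATH-2 and LTF being among the lower ones after progressive weaning. Their differences between groups are therefore given as a description, with no test.

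The study measured venous whole blood of 32 Welsh Pony mares, 1 array per mare, taken 30 days after their foals were weaned. Weaning was brutal in 16 mares and progressive in the other 16, and no unweaned or earlier sample was used here. The RNA was stabilised in the collection tube, and the labelled RNA was hybridised to single-colour Agilent arrays, 8 to a slide with 4 mares of each group on each of 4 slides. A level is the log2 signal of a probe relative to the 75th percentile of its array, so a level of 0 is the signal of that percentile and a difference of 1 is a doubling of signal. Differences are progressive minus brutal. In whole blood, fewer cells of a type and less RNA per cell cannot be told apart.

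Markers of cell types were read on the arrays. Of the neutrophil, T cell and B cell markers listed, 7 of 8, 8 of 8 and 5 of 5 were tested, and all of them except 1 T cell gene (CD28) were well above background on all 32 arrays. Of the other lists, 5 of 7 monocyte, 4 of 8 erythroid, 3 of 6 platelet and 2 of 6 eosinophil and basophil markers were tested. Of the epithelial markers 3 of 7 were tested, with LALBA above background on 32 arrays, EPCAM on at most 20 and KRT18 on 13. The share of spots above background was 53.0% to 66.0% per array. The array of progressive mare 16 held 851 of the 2483 outlier spots that were left out. Some results, among them the differences of ECATH-2 and LTF and their correlation, are given without this array too. The others are given only with it.

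The probes are shown first, because the name ECATH-3 covers 2 different sets of them. The first set, of 3 probes, was designed on the messenger RNA of myeloid cathelicidin 3 (NM_001081930). The second, of 5 probes, was designed on a sequence that the files describe as eCATH-1 messenger RNA (AJ224927), which RefSeq lists as another name of ECATH-3. They are called the ECATH-3 and the eCATH-1 probes here. ECATH-2 had 5 probes (NM_001081869), and LTF had 1 probe of 60 bases (NM_001163974) and 1 of 50 bases with no position in the files. On the build named in the files, EquCab1, the ECATH-3 probes lay at chr16:38730984-38731045, the eCATH-1 probes at chr16:38731813-38731876 and the ECATH-2 probes at chr16:38806871-38806935, all on the minus strand. The LTF probe lay at chr16:40349555-40349614 on the plus strand. The eCATH-1 probes thus began 767 bases past the ECATH-3 probes, and the ECATH-2 probes 74994 bases further on. In RefSeq's horse gene table, which is of another assembly, 2 annotated genes lie between ECATH-3 and ECATH-2, and 41 between ECATH-2 and LTF. Exon and UTR boundaries of EquCab1 were not used here.

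Stretches of 30 bases of 4 probes show which letters are shared, and a stretch of the 50-base LTF probe shows the remaining gene. Capitals mark the longest run that the first 2 share, and then the longest run that the next 2 share. The fifth has no capitals.
ECATH-2: gcttctggaccCTGAAAAATAAATTCTTGT
eCATH-1: gtgtctggactCTGAAAAATAAATTCTTGT
ECATH-3: ggcacagatGTTAGCTCAGGGCTAATCTTC
MILL: gcagcagaaGTTAGCTCAGGGCTAATCTTC
LTF: tcatctgctttcacagtttccgctgtcatc

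ECATH-2 and eCATH-1 probes shared a run of 19 bases, and neither set shared more than 8 bases with the ECATH-3 probes. No other probe on the array shared 15 bases holding at least 3 C or G with the ECATH-2, eCATH-1 or LTF probes. The ECATH-3 probes were different in this respect. They shared such a run with 19 probes of other names, among them all 5 probes of MILL, a pseudogene related to class I histocompatibility genes, and the 21-base run in capitals stood in 13 probes of the array. The probes within a set overlapped: any 2 ECATH-2 probes shared at least 55 bases, any 2 ECATH-3 probes 58, any 2 eCATH-1 probes 56, and the LTF probes 47. They are repeated readings of 1 stretch of transcript and not independent measures of it. The motif AATAAA, the core of the polyadenylation signal, searched on the strand of the probe, was found in all 15 probes and in 8.63% of all probes on the array. Its reverse complement TTTATT was in 3.66% of all probes.

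ECATH-2 was lower after progressive than after brutal weaning on each of its 5 probes. The brightest of them ran from -0.69 through a median of 1.08 to 2.49 in the 16 brutal mares. In the 16 progressive mares it ran from -1.32 through a median of 0.14 to 1.87. The groups overlapped over most of their range, but only 1 progressive mare stood above the brutal median and only 2 brutal mares stood below the progressive median. The means were 1.005 ± 0.81 (SD, n = 16) and 0.03 ± 0.90 (SD, n = 16). The difference was -0.98 (SE 0.29, 95% interval -1.56 to -0.39), a ratio of 0.509 in signal.

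The other ECATH-2 probes gave the same picture, with differences from -1.01 to -0.97. Across mares any 2 of the 5 probes correlated at r = 0.992 or above. The probe printed 5 times per array had an SD of 0.107 between its spots and of 0.868 between mares of a group. Spots of an array share the blood sample, the labelling and the hybridisation, so the first SD covers the spots only. By that spread ECATH-2 was among the more variable transcripts of the array, its brightest probe at the 96.8th percentile of all tested probes.

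LTF showed a difference of like size. Its 60-base probe ran from -0.04 through 1.56 to 3.16 in brutal mares. In progressive mares it ran from -1.25 through 0.58 to 2.43. Here too the groups overlapped, with 4 progressive mares above the brutal median and 3 brutal mares below the progressive median. The means were 1.52 ± 0.90 (SD, n = 16) and 0.60 ± 1.09 (SD, n = 16). The difference was -0.92 (SE 0.34, 95% interval -1.61 to -0.24), a ratio of 0.528. The 50-base probe gave -0.94 (SE 0.34), and the probes correlated at r = 0.996 over mares. Its SD was 0.0832 between spots and 1.005 between mares of a group.

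**Figure D1:**
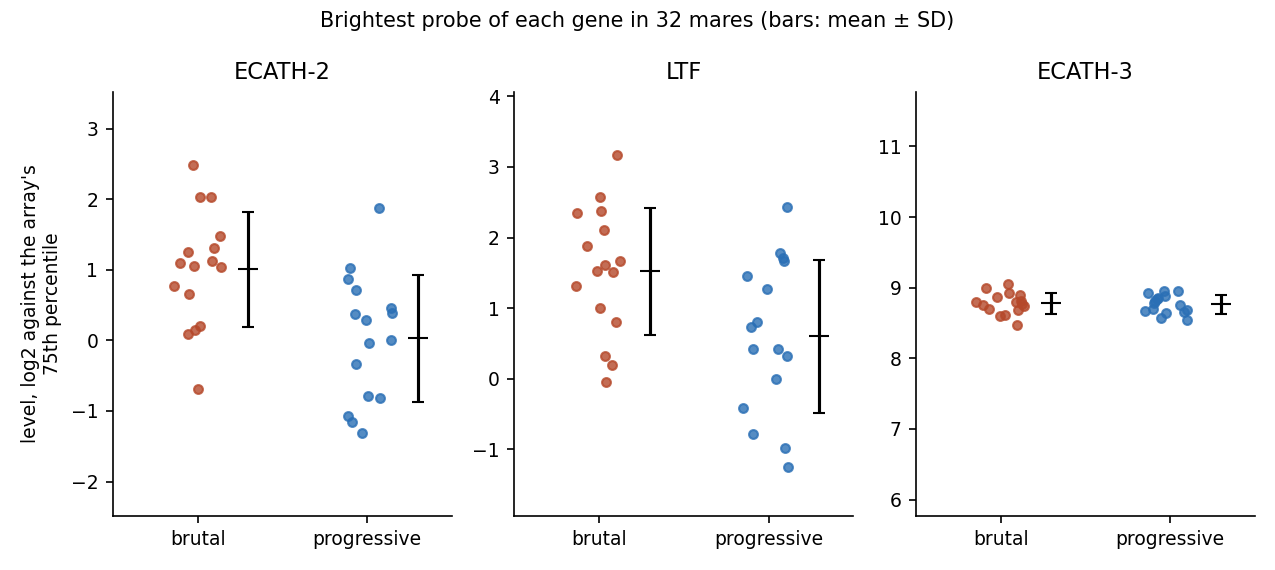
The level of the brightest probe of ECATH-2, LTF and ECATH-3 (log2 against the array's 75th percentile) is plotted for each of the 16 brutal and 16 progressive mares, with the mean and SD of each group beside the points and the same span of 6 log2 units in each panel. ECATH-2 and LTF are spread over several units with overlapping groups, whereas all 32 ECATH-3 values lie between 8.47 and 9.05.

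The same direction was seen on every slide, each of which is a comparison of 4 with 4 mares. The genes were selected on the difference over all mares, which the slides make up, so this is no separate support for it. For ECATH-2 the differences on slides 1 to 4 were -1.04, -1.09, -0.76 and -1.01. For LTF they were -0.80, -1.20, -1.08 and -0.60. Without progressive mare 16 the difference was -0.90 for ECATH-2 and -1.0 for LTF. With a score of mature neutrophil surface genes as a covariate it was -1.03 for ECATH-2 and -0.85 for LTF. In the fit over all probes (limma, Benjamini-Hochberg), 0 of 26379 probes passed an adjusted p of 0.05, which is 0.0% called, and the smallest adjusted p was 0.996. Without adjustment, 728 probes had a p below 0.05; with a trended, robust variance 716 had, and again 0 passed after adjustment. No member passed that threshold.

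**Figure D2:**
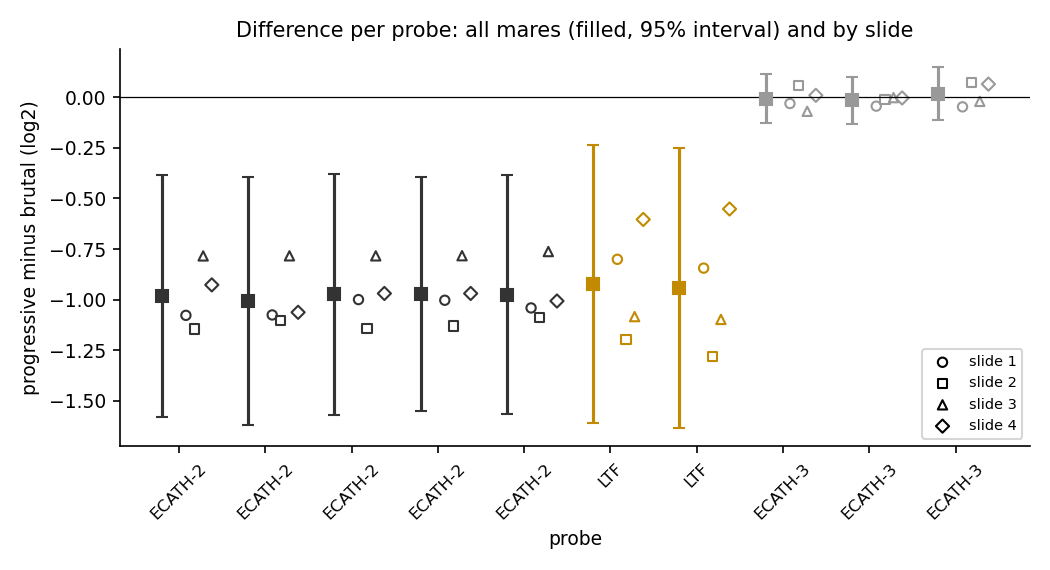
Progressive minus brutal difference (log2) of each ECATH-2, LTF and ECATH-3 probe, with filled squares and bars for all 32 mares and their 95% interval and open symbols for the 4 slides. Every open symbol of ECATH-2 and LTF lies below 0, and those of ECATH-3 lie between -0.07 and 0.07.

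The ECATH-3 probes hardly varied. The brightest ran from 8.47 through 8.78 to 9.05 in brutal mares and from 8.54 through 8.77 to 8.96 in progressive mares. The ranges coincided. The means were 8.78 ± 0.15 (SD, n = 16) and 8.76 ± 0.13 (SD, n = 16), and the difference was -0.02 (SE 0.06, 95% interval -0.13 to 0.10). The other ECATH-3 probes differed by -0.01 and 0.02. The spread of the brightest probe between mares of a group was at the 3.20th percentile of all tested probes. On the ECATH-3 probe printed in 2 spots per array it was 0.153, against an SD of 0.126 between spots.

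The ECATH-3 readings moved together with probes of other names that hold the same letters. All 19 sharing probes were tested, and their deviations from the group means correlated with those of the brightest ECATH-3 probe at a median r of 0.864 (range 0.639 to 0.958). Over the 26347 tested probes that shared no such run the median r was -0.05. The 5 MILL probes reached r = 0.889 to 0.932. These correlations are over the same 32 arrays and are given as a description. The sharing probes had a median level of 7.98, against -0.77 over the tested probes that shared no such run. The brightest ECATH-3 probe lay at the 99.9th percentile of level of all tested probes. How much of the ECATH-3 signal came from transcripts of other genes was not tested. Results under the name ECATH-3 are therefore those of these probes, and not of ECATH-3 messenger RNA alone.

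The eCATH-1 probes lay at separate levels in different mares. In 7 mares all 5 probes were well above background, with levels from 0.13 to 4.10. In the other 25 mares the highest level of any of the 5 probes was -2.66 and the lowest -7.62. On the probe with the widest gap, the lowest of the 7 mares was at 0.13 and the highest of the 25 at -5.24. On the probe with the narrowest gap these were at 0.27 and -2.66. No value of any of the 5 probes lay between -2.66 and 0.13.

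The 7 mares were 2 of 16 brutal and 5 of 16 progressive mares. Their mean levels over the 5 probes were 0.56 in brutal mare 4 and 1.67 in brutal mare 2. Among progressive mares they were 0.19 in mare 4, 0.29 in mare 15, 0.31 in mare 8, 0.70 in mare 10 and 4.06 in mare 16. In each of these mares the 5 probes lay within 0.233 of each other, whereas in each of the other 25 they were spread over 1.24 to 4.02. Progressive mare 16 stood 2.39 above the next mare. The 7 mares came from all 4 slides (3, 1, 1 and 2 mares), with 2 in the first and 5 in the second row of arrays.

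**Figure D3:**
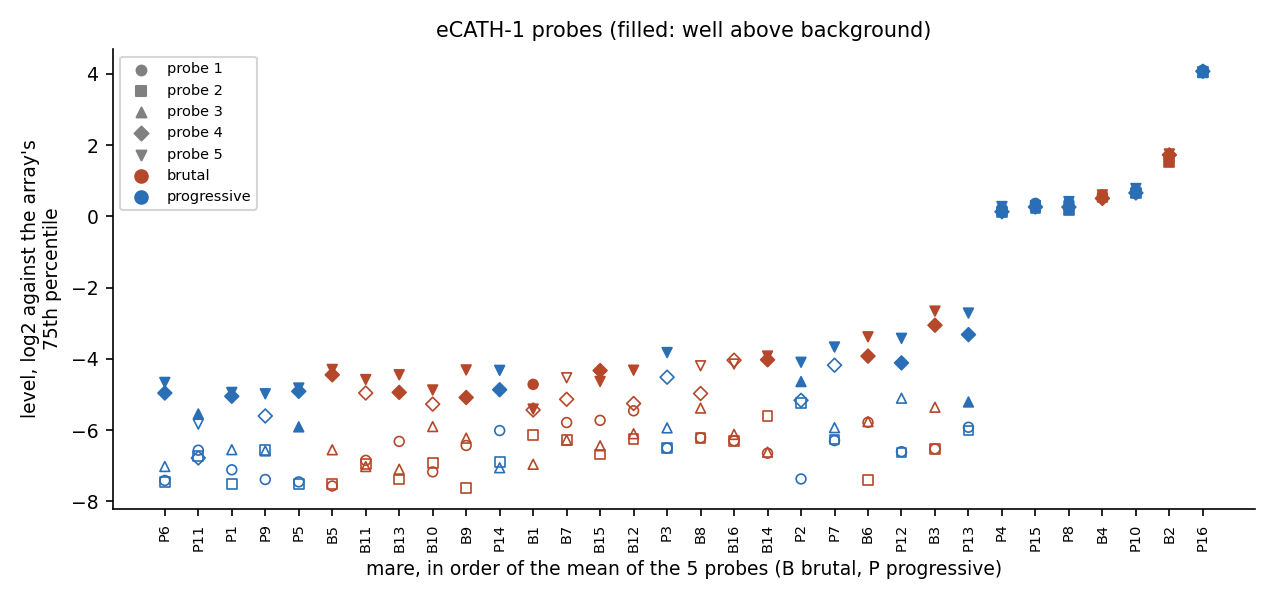
Level of each of the 5 eCATH-1 probes (log2 against the array's 75th percentile) in the 32 mares, in order of their mean, with filled symbols where the probe was well above background. The 7 mares at the right lie above 0 on all 5 probes, and the 25 others lie below -2.6 with a scatter between probes.

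In the 25 mares at the low level the 5 probes were not equally dark. They were well above background in 1, 0, 4, 13 and 21 of the 25 mares, in the order of their positions. As the mares fall into separate levels, no correlation over all 32 is given. Within the 25 mares, the probe above background most often correlated with ECATH-2 at r = 0.13 (rho = -0.01; permutation p = 0.524 and 0.955) and with LTF at r = 0.33 (rho = 0.26; p = 0.118 and 0.213). Of the 4 relations of this kind that were computed, the smallest adjusted p was 0.270. Without the 2 mares farthest from the median these r were -0.01 and 0.34.

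The levels of ECATH-2 and LTF in the 7 mares with eCATH-1 signal covered most of the range of all mares. ECATH-2 ran from -1.08 through a median of 0.39 to 1.87 in the 7 and from -1.32 through 0.66 to 2.49 in the other 25. LTF ran from 0.00 through 1.67 to 2.43 in the 7 and from -1.25 through 0.81 to 3.16 in the 25. Progressive mare 16, with the highest eCATH-1 level, ranked 30th of 32 for ECATH-2 (-1.08) and 8th for LTF (1.78). Progressive mare 10 ranked 4th for ECATH-2 (1.87) and 3rd for LTF (2.43). A relation of these levels within the 7 mares was not tested.

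The mean difference of the eCATH-1 probes was below 0 on slide 1 and above 0 on slides 2, 3 and 4. The 3 eCATH-1 probes that entered the fit were above background on 11, 20 and 28 of 32 arrays, so most values of the first lie near background. That probe entered through the progressive group, with 9 arrays above background against 2 in the brutal group, and its difference is no support for a direction. Over all mares, progressive minus brutal was 1.60 (SE 1.04), 0.91 (SE 0.88) and 0.99 (SE 0.82), and the intervals of all 3 probes include 0. Without progressive mare 16 these differences were 1.08, 0.44 and 0.55. On slide 1, where 2 of the 3 mares with signal were brutal, they were -1.71, -2.08 and -1.72. On slide 2 they were 1.36, 1.17 and 0.92, and on slide 3 they were 2.17, 1.18 and 1.16. On slide 4, where both mares with signal were progressive, they were 4.58, 3.37 and 3.61. Averaging all tested probes filed under ECATH-3 gave a difference of 0.58, against -0.02 on the brightest, and that average rests on these eCATH-1 values and on progressive mare 16 among them.

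Whether the members moved together from mare to mare is a question the choice of genes did not use, once the group means are removed. ECATH-2 and LTF did, at r = 0.56 over 32 mares (permutation p = 0.0013, adjusted p = 0.0273 over 21 relations) and rho = 0.54 (permutation p = 0.0024, adjusted p = 0.0504). Without the 2 mares with the most extreme ECATH-2 levels r was 0.50 (permutation p = 0.00712, adjusted p = 0.150). With slide removed as well, r was 0.54. On slides 1 to 4 alone it was 0.80, 0.72, 0.55 and 0.10. Without progressive mare 16, which had low ECATH-2 and high LTF, r over the rest was 0.65. With the neutrophil surface score removed it was 0.70 over 32 mares. Of the 32 mares, 12 stood above the median of both genes and 12 below both. Among 9698 other genes, LTF was second by r to ECATH-2, and ECATH-2 was ninth by r to LTF.

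**Figure D4:**
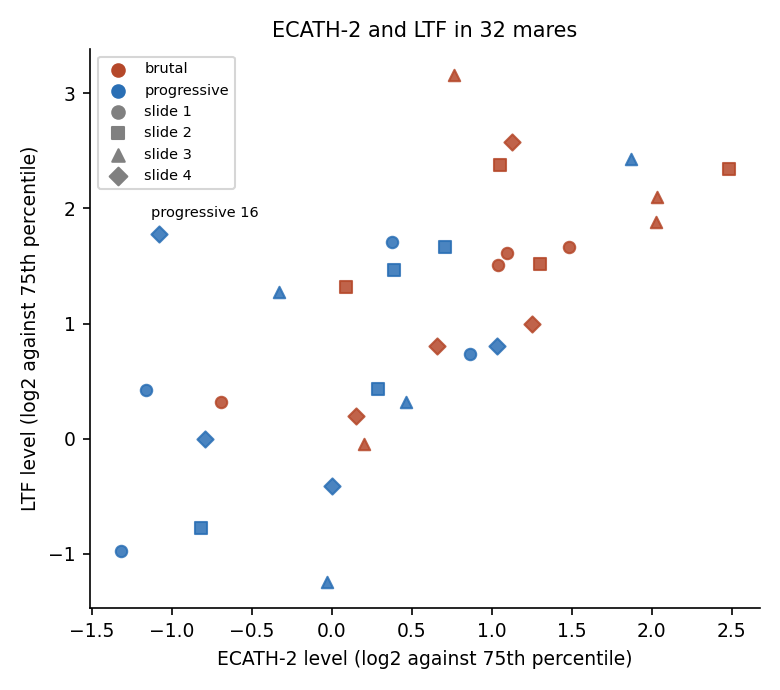
Level of LTF against that of ECATH-2 (brightest probes, log2 against the array's 75th percentile) in the 32 mares, coloured by weaning group, with a symbol for each slide. The cloud rises from lower left to upper right in both groups, and progressive mare 16 lies apart at an ECATH-2 level of -1.08 and an LTF level of 1.78.

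The brightest ECATH-3 probe moved with neither. Its r was -0.01 with ECATH-2 (rho = 0.06; permutation p = 0.937 and 0.740) and -0.04 with LTF (rho = -0.05; permutation p = 0.838 and 0.807). Without the 2 extreme mares these r were 0.11 and -0.10. Both changed sign between slides, from -0.63 to 0.65 for ECATH-2 and from -0.31 to 0.53 for LTF.

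Scores of other gene groups, each the mean of standardised levels of its tested genes with the members left out, were set beside each member. In the main setting, no relation of a member with a score passed an adjusted p of 0.05 among the 21. ECATH-2 correlated at r = 0.00 with the specific granule score (8 of 20 listed genes; rho = -0.04; permutation p = 0.982 and 0.840) and at r = 0.23 with the azurophil granule score (7 of 17 genes; rho = 0.25; p = 0.222 and 0.184). With the mature neutrophil surface score (10 of 15 genes) ECATH-2 gave r = -0.27 (rho = -0.27; permutation p = 0.149 and 0.138). LTF gave r = 0.32 with the specific granule score (rho = 0.31; p = 0.0813 and 0.0982), 0.37 with the azurophil score (rho = 0.36; p = 0.0416 and 0.0531) and 0.32 with the neutrophil surface score (rho = 0.36; p = 0.0924 and 0.0545). Without the 2 extreme mares these 3 r of LTF were 0.31, 0.21 and 0.22. The adjusted p of these 6 relations were 0.218 to 0.982. The slides differed. On slides 1 to 4 alone, r of ECATH-2 with the specific granule score was -0.61, 0.14, 0.58 and 0.45. With the azurophil score it was -0.33, 0.50, 0.81 and 0.90. For LTF with the specific granule score, r was -0.22, 0.21, 0.79 and 0.73. Slide values of the other score relations are not reported here.

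The monocyte score (5 of 7 genes) correlated with LTF at r = 0.40 (rho = 0.41; permutation p = 0.0209 and 0.0200, adjusted p = 0.146). The erythroid score (4 of 8 genes) correlated with ECATH-2 at r = 0.32 (rho = 0.29; p = 0.0715 and 0.103, adjusted p = 0.277) and the T cell score (8 of 8 genes) at r = 0.25 (rho = 0.23; p = 0.171 and 0.205, adjusted p = 0.359). Without the 2 extreme mares these r were 0.32, 0.26 and 0.40. ECATH-3 had its strongest relation with the azurophil score, at r = -0.46 (rho = -0.42; p = 0.00975 and 0.0204, adjusted p = 0.102), and -0.36 without the 2 extreme mares.

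The specific granule genes are the ones stored beside lactoferrin. Of the 20 listed, 10 were on the array and 8 were tested, and 6 of the 8 had an estimate below 0 after progressive weaning, against 58.4% of all 9699 tested genes. None passed the threshold, and the median difference was -0.17 against -0.02 over all genes. BPI, a protein that kills gram-negative bacteria, had a difference of -0.36 (SE 0.25). TCN1, the vitamin B12 binder of these granules, had -0.30 (SE 0.20), CRISP3 -0.19 (SE 0.11) and MMP8, the neutrophil collagenase, -0.18 (SE 0.28). The oxidase subunits CYBA and CYBB, whose protein sits in the granule membrane, had -0.15 (SE 0.08) and -0.13 (SE 0.13). On the other side, PGLYRP1, which binds bacterial peptidoglycan, had 0.41 (SE 0.24), and LCN2, the siderophore-binding lipocalin, had 0.02 (SE 0.14). OLFM4 and ARG1 were on the array but above background on at most 4 and 0 arrays. No specific granule gene had a difference as far from 0 as ECATH-2 or LTF. Those members were selected on their difference and these genes were not, so no conclusion is drawn from this comparison. Over mares, r to LTF was 0.43 for TCN1, 0.33 for MMP8, 0.30 for CYBB, 0.27 for LCN2, 0.12 for PGLYRP1, 0.06 for CRISP3 and 0.00 for BPI and CYBA. To ECATH-2 it ran from -0.36 for BPI to 0.35 for CRISP3.

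The azurophil granules form earlier in neutrophil development. Of 17 listed genes, 12 were on the array and 7 were tested. Of the 7, 6 had estimates below 0, against 58.4% of all tested genes, and none passed the threshold. Their median was -0.18, against -0.02 over all genes. MPO, myeloperoxidase, was above background on 17 of 32 arrays and had -0.37 (SE 0.33). LYZ, lysozyme, had -0.29 (SE 0.14), CD63 -0.20, HEXA -0.18, SERPINB1 -0.14, GUSB -0.10 and CTSC 0.03. PRTN3, CTSG, DEFA1, CTSD and EPX were above background on at most 4, 7, 4, 2 and 2 arrays. MPO was the gene most like ECATH-2 of all, at r = 0.61, and its r to LTF was 0.38. The other azurophil genes had r of -0.04 to 0.17 with ECATH-2 and of -0.01 to 0.35 with LTF.

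Groups further from the granules were described by the genes at either end of the r to ECATH-2. For the counts by direction, 5662 (58.4%) of all 9699 tested genes had estimates below 0 and 4037 above 0, with a median of -0.02. All 6 tested genes of the gelatinase granules and secretory vesicles had estimates below 0 (median -0.19), and their r to ECATH-2 ran from ALPL (-0.25) and MMP9 (-0.18) to QPCT (-0.11) and SLC11A1 (0.03). Of the 10 mature neutrophil surface genes 8 were below 0 (median -0.15), and their r ran from PTAFR (-0.42) to CXCR2 (-0.13) and MXD1 (-0.04). Of the 7 granulocyte transcription factors 5 were below 0 (median -0.16), from RUNX1 (r = -0.27) and MYB (-0.18) to RARA (0.09) and CEBPE (0.13). CEBPE, the factor that drives specific granule genes in late precursors, had a difference of -0.32 (SE 0.27). All 7 genes of proliferating precursors had estimates above 0 (median 0.14), with r to ECATH-2 from KIF11 (0.05) and MKI67 (0.05) to CCNA2 (0.12) and CCNB1 (0.17). None of the genes of these groups passed the threshold.

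Of the receptors and of the vitamin D pathway that induces human cathelicidin, 9 of 10 listed genes were on the array but only RXRA and LRP1 were tested. RXRA had r = -0.04 and LRP1 r = 0.16 to ECATH-2, with differences of -0.28 (SE 0.17) and -0.27 (SE 0.17). VDR was above background on at most 2 arrays and TFRC on 0. Of the 7 other antimicrobial genes tested, 6 were below 0 (median -0.24), against 58.4% of all tested genes (median -0.02). The calgranulins S100A8, S100A9 and S100A12, abundant neutrophil proteins, had differences of -0.31 (SE 0.31), -0.24 (SE 0.28) and -0.14 (SE 0.23). Their r to ECATH-2 were -0.23, -0.34 and -0.40. RNASE6, an antimicrobial ribonuclease, had -0.31 (SE 0.14) and r = 0.30 to ECATH-2 and 0.55 to LTF, and HAMP, which codes for hepcidin, had r = 0.05.

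Of the markers of other cells, those of red cells and platelets had the lowest median estimates. Estimates below 0 were found for 58.4% of all tested genes (median -0.02). Of 4 tested erythroid genes 3 had estimates below 0 (median -0.53), and 3 of 3 tested platelet genes did (median -0.41). None passed the threshold. The summed erythroid signal, in units of the array's 75th percentile, ran from 18.1 to 989 in brutal and from 18.1 to 713 in progressive mares. The platelet sum ran from 0.947 to 5.53 and from 0.805 to 3.73. The erythroid genes SLC4A1, EPB42 and HEMGN were on the array but were not tested. The part of these cells in the difference of ECATH-2 and LTF was not tested.

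The genes most like each member over mares are given by r of the deviations from the group means, among 9698 genes. After MPO (0.61) and LTF (0.56), ECATH-2 was followed by VKORC1 (0.56), LOC100630020, a gene described as bone marrow proteoglycan-like (0.56), SSTR5 (0.55), ACSS2 (0.54), TANGO2 (0.54), RGMB (0.54), ECT2L (0.53) and METRNL (0.52). The lowest r were those of EIF4E3 (-0.60), DUSP11 (-0.56) and MOCOS (-0.55). For LTF the genes included ASAP1 (0.61), THBS2 (0.60), MYH9 (0.60), CRYM (0.59), THBS1 (0.59), ITGB2 (0.57), USP19 (0.57), ECATH-2 (0.56) and LOC100630020 (0.55), and at the other end LUC7L3 (-0.65), PTPN2 (-0.64) and MIX23 (-0.64). LOC100630020 was thus in both lists of 10, but it was above background on only 12 of 32 arrays, with a mean level of -5.62. With so few arrays, the filter for tested probes can have been met in a single group only. Its difference of -1.14 is therefore no support for a direction, and its r rest largely on values near background. For ECATH-3 they were MILL (0.92), GCNT1 (0.86), ITGBL1 (0.78), OR6K4 (0.78), SNRNP48 (0.76), STX17 (0.74), ACOD1 (0.74), AEBP2 (0.74), TET1 (0.71) and FNBP4 (0.71), of which MILL and ACOD1 hold letters shared with the ECATH-3 probes. The lowest were NAB2 (-0.72), RAB9A (-0.67) and BZW2 (-0.67). The ECATH-3 list shared no gene with the other lists. Other named genes were also above background on only part of the 32 arrays. These were MPO (17), THBS2 (18), ECT2L (19), ASAP1 (23), SSTR5 (24), TET1 (25), CRYM (27) and THBS1 (28). Their r rest in part on values near background.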

How the data were processed

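Per the labels' protocols, total RNA of PAXgene blood was labelled with Cy3. Per the submitters' processing notes the arrays were read with Agilent Feature Extraction 10.10.1.1. The deposited scanner files give a background-corrected intensity per spot (62976 spots, of which 1319 were controls). The authors' deposited value table holds log2 values of 25619 probes, with no source used here giving their normalization. Each of its columns correlated best by rank with its own array, and their medians were 8.40.

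From the intensities, log2 of the processed signal minus the array's 75th percentile (340 to 646) was computed over non-control spots. Outlier spots were left out and spots of a probe averaged. A probe was tested if well above background on at least 8 of 16 arrays of a group. The groups were compared with limma 3.58.1 in R 4.3.3, with Benjamini-Hochberg adjustment at 0.05 over 26379 probes. The fit was tested on simulated data. A gene stands for its brightest tested probe. Correlations used deviations from group means and two-sided permutation tests (100000 within groups, or all 576 relabellings within a slide). Nothing says more than that each array is a separate mare.

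The members, gene lists and tests were chosen with earlier results of these data known. Named were all member probes, the 10 highest and 3 lowest r per member, all tested granule genes, the 2 highest and 2 lowest r to ECATH-2 of each further list, and the calgranulins; erythroid and platelet markers and relations within the 25 low eCATH-1 mares were added after their values were seen. Some genes that this rule names are not reported here. Alternatives were other background corrections, scalings, filters and variance models, the deposited table, slide and row terms, slides left out or alone, progressive mare 16 left out and a neutrophil covariate. The number of arrays limits the precision.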

Additional observations from a re-analysis of the deposited data

How the results depend on the processing

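No paired analysis was possible because the labels tie no mare of a group to a mare of the other, and replicate numbers here only name the mares. The differences of ECATH-2 (-1.09 to -0.76) and LTF (-1.20 to -0.60) kept their sign in all 19 alternatives run. Slide terms, slide and row terms and both changes of filter could not move them, and gave -0.98 and -0.92 again. The groups are balanced over slides and rows, and a filter leaves the values of a probe as they are. The remaining alternatives reuse arrays by which ECATH-2 and LTF were selected, so keeping the sign is no separate support. The number of specific granule genes with a lower estimate, 6 of 8 in the main setting, was not constant. It fell to 4 of 8 when only the mares of slide 2, or only those of slide 4, were used. It was 7 of 8 with another background correction and without progressive mare 16. Changing the filter changed the genes counted, with 8 of 10 lower under no filter and 5 of 7 under a stricter one. In the remaining alternatives it was 6 of 8. The difference of ECATH-3 was 0.58 as the mean of all its tested probes and 1.17 on the tested eCATH-1 probes alone, the latter chosen after seeing the data. With slide 4 alone 1 probe passed the adjusted threshold, and in every other alternative 0 did.

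The correlation of ECATH-2 with LTF was above 0 in all 19 alternatives but its adjusted p was above 0.05 in 9 of them. Its r was then 0.486 without slide 1, 0.513 without slide 2, 0.577 without slide 3, 0.803, 0.724, 0.547 and 0.096 on slides 1 to 4 alone, 0.538 as Spearman's rho and 0.495 without the 2 extreme mares. Fewer mares enter all of these except the rho. Fewer mares also enter without slide 4 and without progressive mare 16, where the adjusted p was 0.0149 and 0.00336. Why the adjusted p was above 0.05 in the 9 alternatives was not tested. The correlations of ECATH-3, near 0 in the main setting, changed sign in 9 alternatives each. With ECATH-2, r was 0.051 with slide as a block, 0.067 with slide and row, 0.653 and 0.0722 on slides 1 and 2 alone, 0.000141 and 0.158 without slides 2 and 3, 0.0623 as rho, 0.016 with group means kept and 0.107 without the 2 extreme mares. With LTF, it was 0.115 after quantile scaling, 0.147 in the deposited table, 0.00846 with slide as a block, 0.0174 with slide and row, 0.273 and 0.529 on slides 1 and 2 alone, 0.0761 and 0.000425 without slides 3 and 4, and 0.0494 with the neutrophil covariate. None of these passed the threshold.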
